A study of Mus musculus with 11 samples.

Results

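The genes described here encode the CD3 chains of the T cell receptor complex and the pre-T cell receptor alpha chain: Cd3d, Cd3e, Cd3g, Cd247 and Ptcra. They were the probe sets annotated to one of these symbols alone. Each of the 5 had 1 such probe set, out of 19938 genes measured in the series. Transcript levels were read on 11 Affymetrix arrays of sorted C57BL/6J mouse cells with no genetic change or treatment named. The bone marrow gave hematopoietic stem cells (HSC, 2 arrays). It also gave lymphoid-primed multipotent progenitors (LMPP, 2 arrays) and, as 2 further arrays, common lymphoid progenitors (CLP). The thymus gave 2 arrays of early thymic precursors (ETP). Of the CD4-CD8- thymocyte stages that follow, 1 array was of double negative 2 (DN2) cells and 2 were of double negative 3 (DN3) cells. The sources used here do not give the age of the mice, the number of animals behind a sample or the gates of the sort. All levels are log2 intensities after RMA, so a fold is a ratio of intensities, and a level is compared only between samples of the same gene.

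The T cell receptor has no signalling tail of its own. CD3 gamma, delta and epsilon (Cd3g, Cd3d, Cd3e) and the zeta chain (Cd247) assemble with it and carry the tyrosine motifs (ITAMs) that Lck phosphorylates and that ZAP-70 then binds. Pre-TCR alpha (Ptcra) stands in for the alpha chain in DN3 thymocytes: it pairs with a newly rearranged beta chain, and this pre-TCR with its CD3 chains is the checkpoint known as beta-selection.

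Most stage markers followed the labels, with exceptions in HSC and ETP. Of 4 measured HSC markers 1, Slamf1, was called lower in LMPP than in HSC: it stood at 7.67 and 7.42 in HSC and between 3.98 and 5.68 on all other arrays. Hlf and Mecom, both HSC transcription factors, overlapped between LMPP (8.55 and 9.34, and 6.90 and 7.15) and HSC (8.91 and 8.32, and 7.02 and 7.09). The HSC arrays also carried the erythroid gene Car1 at 11.17 and 10.63 and the neutrophil gene Elane at 8.32 and 8.89, against at most 7.28 and 6.53 elsewhere; their part in the comparisons with HSC was not tested. The ETP arrays carried the neutrophil gene S100a8 at 8.05 and 8.50, against at most 6.94 elsewhere. Of 7 neutrophil and myeloid markers 3 were called higher and none lower in ETP, both against LMPP and against CLP. Of all 19938 genes 287 and 282 were called higher in these comparisons. The part of such genes in the comparisons with ETP was not tested. Ebf1, a B lineage factor, was at 9.32 and 9.22 in CLP and at 5.43 or lower elsewhere. Il2ra, by which DN2 and DN3 cells are commonly sorted, was at 11.40 in DN2 and at 11.30 and 11.23 in DN3, against 7.68 or lower elsewhere. Kit, which DN3 cells lose, was at 9.24 in DN2 and at 7.20 and 6.84 in DN3. The sources used here do not say whether antibodies to a CD3 chain were part of the sort.

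**Figure D1:**
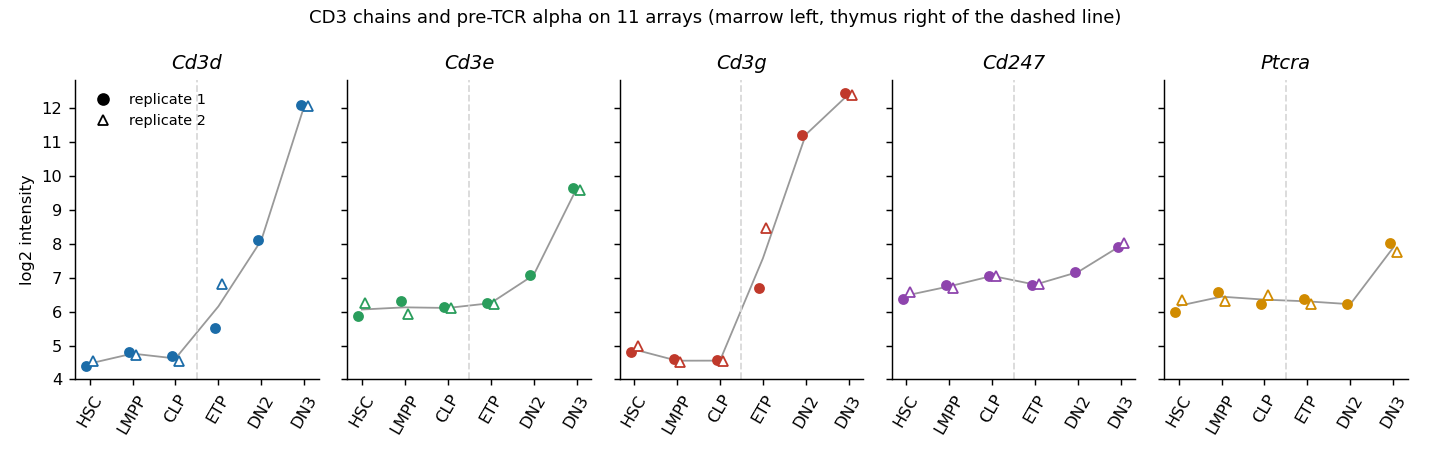
Log2 intensity of each gene (vertical axis, shared) on every array, by population along the horizontal axis; filled circles are replicate 1, open triangles replicate 2, and the grey line joins population means. Cd3g and Cd3d leave their marrow level in ETP, Cd3e in DN2, and Ptcra in DN3, where both arrays stand at 8.01 and 7.76.

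All 5 genes differed among the 6 populations in limma's F test, at adjusted p between 3.97e-07 for Cd3d and 0.000254 for Ptcra. Of all 19938 genes 12.2% did so. Each of the 5 had its highest mean in DN3, and both DN3 arrays lay above every other array. How many of all genes had this order was not counted. They differed in how far they rose and at which stage. DN3 exceeded the mean of the 3 marrow populations by 7.74 on the log2 scale in Cd3g, 7.44 in Cd3d, 3.52 in Cd3e, 1.56 in Ptcra and 1.19 in Cd247. The highest value of any probe set was 13.77, and in DN3 Cd3g averaged 12.41 and Cd3d 12.06; the part of the scale's upper end in their last step was not tested.

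Cd3g, the gamma chain, rose in ETP and again in DN2. Its marrow arrays lay between 4.51 and 4.97: 4.80 and 4.97 in HSC, 4.60 and 4.51 in LMPP and 4.57 and 4.54 in CLP. In ETP it read 6.68 and 8.45, in DN2 11.21 and in DN3 12.43 and 12.38. Every thymic array was thus above every marrow array. ETP exceeded CLP by 3.01 ± 0.40 (log2 difference ± SE; 8.07-fold, limma adjusted p = 0.00229) and LMPP by 3.01 ± 0.40 (8.08-fold, adjusted p = 0.00292). Each SE takes a single spread from all populations together. The SD of Cd3g was 1.25 in ETP and 0.016 to 0.12 in the other pairs, so this SE understates the spread between the ETP arrays. With the 2 populations alone neither difference was called. DN2 exceeded ETP by a further 3.65 ± 0.49 (12.5-fold, adjusted p = 0.00569). On the log2 scale DN2 had already covered 84.6% of the way from marrow to DN3. The last step, DN3 over DN2, was 1.19 ± 0.49 and not called (95% interval 0.10 to 2.29, adjusted p = 0.517). Its error rests on the spread of the ETP arrays: without either of them the same difference was called at adjusted p = 0.00328.

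Cd3d, the delta chain, followed in the same order but rose mostly in the last step. It read 4.40 and 4.54 in HSC, 4.82 and 4.71 in LMPP and 4.70 and 4.54 in CLP. The thymic values were 5.51 and 6.80 in ETP, 8.10 in DN2 and 12.07 and 12.04 in DN3, again with all thymic arrays above all marrow arrays. ETP exceeded CLP by 1.54 ± 0.31 (2.90-fold, limma adjusted p = 0.0261) and LMPP by 1.39 ± 0.31 (2.62-fold, adjusted p = 0.0442). The SD of Cd3d was 0.91 in ETP and at most 0.11 in the other pairs. Here too, neither difference was called with the 2 populations alone. DN2 exceeded ETP by 1.95 ± 0.37 (3.86-fold, adjusted p = 0.0398). DN3 exceeded DN2 by 3.95 ± 0.37, or 15.5-fold (adjusted p = 0.000273). DN2 stood at 46.9% of the log2 rise from marrow to DN3. The calls of Cd3d in ETP and in DN2 were near the threshold: leaving out any HSC, LMPP, CLP or DN3 array ended the DN2 call (adjusted p between 0.0636 and 0.0832) and the call of ETP against LMPP (0.0611 to 0.168). ETP against LMPP was also lost without ETP replicate 2 (a difference of 0.75, adjusted p = 0.0554), and ETP against CLP without either CLP or either DN3 array (0.0522 to 0.129).

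Cd3e, the epsilon chain, which pairs with both gamma and delta, was within its marrow range in ETP and higher in DN2 and DN3. It read 5.88 and 6.24 in HSC, 6.32 and 5.93 in LMPP, 6.12 and 6.09 in CLP and 6.26 and 6.24 in ETP. It then stood at 7.07 in DN2 and at 9.64 and 9.59 in DN3. The ETP arrays lay inside the marrow range, and ETP against CLP gave 0.14 ± 0.15 (95% interval -0.20 to 0.48). DN2 was above every earlier array, by 0.97 ± 0.19 over CLP (1.96-fold, limma adjusted p = 0.0212) and by 0.83 ± 0.19 over ETP (1.77-fold), which missed the threshold (adjusted p = 0.0964). The larger part came with DN3, at 2.54 ± 0.19 over DN2 (5.82-fold, adjusted p = 4.73e-05). The call of DN2 against CLP was lost without CLP replicate 1 (adjusted p = 0.0769) or CLP replicate 2 (0.0720).

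Cd247, the zeta chain, moved least. It read 6.37 and 6.58 in HSC, 6.80 and 6.69 in LMPP and 7.04 and 7.06 in CLP. It read 6.79 and 6.80 in ETP, 7.17 in DN2 and 7.89 and 8.01 in DN3. Among the 5 genes it alone had a called difference within marrow, CLP over HSC by 0.58 ± 0.12 (1.49-fold, limma adjusted p = 0.0136), in a comparison where 6.28% of genes were called. That call was lost without HSC replicate 1 or either CLP array. DN2 over CLP was 0.12 ± 0.14 and not called (95% interval -0.20 to 0.43). DN3 exceeded DN2 by 0.78 ± 0.14 (1.72-fold, adjusted p = 0.0198), CLP by 0.90 ± 0.12 and ETP by 1.15 ± 0.12 (adjusted p = 0.000655 and 0.000119). Without DN3 replicate 1 or 2 the step from DN2 was at adjusted p = 0.0745 and 0.155.

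Ptcra, the pre-TCR alpha chain, had no called difference up to DN2 and rose in DN3. It read 5.99 and 6.34 in HSC, 6.57 and 6.31 in LMPP, 6.22 and 6.48 in CLP, 6.38 and 6.23 in ETP and 6.22 in DN2. DN3 then read 8.01 and 7.76. The DN2 array, at 6.22, lay inside the marrow range of 5.99 to 6.57. DN2 against ETP gave -0.08 ± 0.20 (95% interval -0.53 to 0.36) and DN2 against CLP -0.13 ± 0.20 (-0.58 to 0.31). DN3 exceeded DN2 by 1.67 ± 0.20 (3.18-fold, limma adjusted p = 0.00141), ETP by 1.58 ± 0.16 (adjusted p = 0.000133) and CLP by 1.53 ± 0.16 (adjusted p = 0.000154). No detection calls were used here, so a level near background cannot be told apart from a low transcript level, and folds over such a level may understate the ratio of transcripts.

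**Figure D2:**
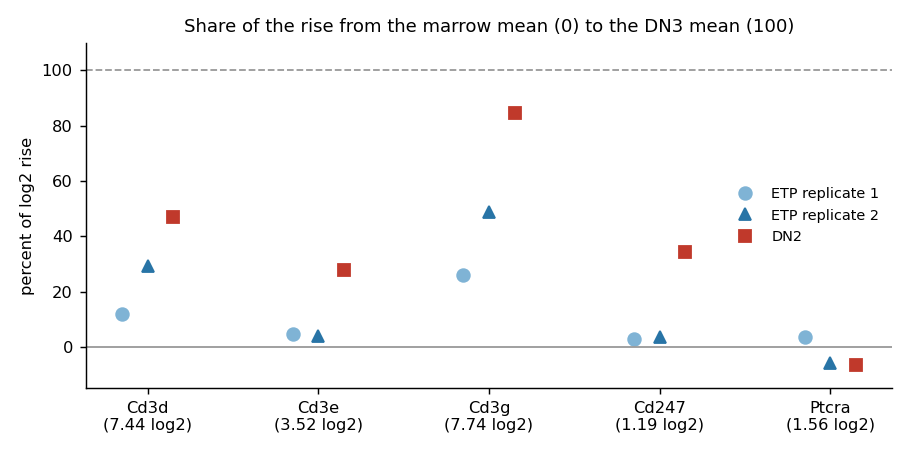
Position of each ETP array and of the DN2 array between the marrow mean (0) and the DN3 mean (100), as a percentage of each gene's log2 rise, which is printed under its name. DN2 stands at 84.6% for Cd3g, 46.9% for Cd3d, 34.5% for Cd247, 27.8% for Cd3e and -6.59% for Ptcra. The marrow arrays of Cd247 span 0.69 log2, beside its rise of 1.19, and its DN2 level was not called against CLP.

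Set out by step, none of the 5 genes was called for LMPP against HSC, where limma called 2.94% of all genes, or for CLP against LMPP, where it called 1.14%; at an unadjusted p under 0.05 the count was 1 in each, Cd247. For ETP against LMPP 2 of 5 were called, both higher, against 2.31% of genes. For ETP against CLP the same count was 2 of 5, against 2.52%. Cd3g and Cd3d were the called genes in both, and these comparisons share the ETP arrays. For DN2 against ETP 2 of 5 were called higher, again Cd3g and Cd3d, against 0.998% of genes. For DN2 against CLP 3 of 5 were called higher, with Cd3e, whose call either CLP array decides, the added gene, against 2.76%. For DN3 against DN2 4 of 5 were called higher, against 1.8%. Cd3g also stood above DN2 there, by 1.19, but was not called. All 5 were higher in DN3 than in ETP, against 6.57% of genes, and in DN3 than in CLP, against 8.69%. Over ETP the folds in DN3 were 59.9 for Cd3d (limma adjusted p = 8.24e-07), 28.6 for Cd3g (2.83e-05) and 10.3 for Cd3e (3.55e-07), and over CLP they were 231, 174 and 11.4 for Cd3g, Cd3d and Cd3e (adjusted p between 1.57e-07 and 7.14e-07). None of the 5 was called lower in any of these comparisons. Cd247 was nevertheless lower on both ETP arrays than on both CLP arrays (difference -0.26, adjusted p = 0.442), and Cd3g lower on both LMPP than on both HSC arrays (-0.33, adjusted p = 0.784). DN2 has 1 array, so its tests take their spread from the other populations.

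**Figure D3:**
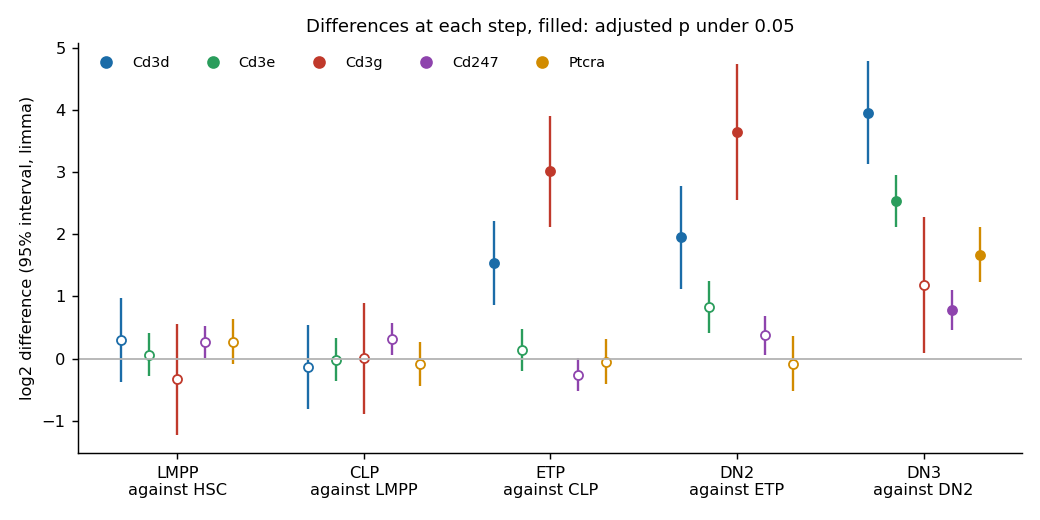
Log2 difference (vertical axis) with its 95% interval from limma for each gene at 5 successive steps; filled points have an adjusted p under 0.05 over all genes. Cd3g and Cd3d are called at the ETP and DN2 steps, and Cd3d, Cd3e, Cd247 and Ptcra at the DN3 step. At that step Cd3g differs by 1.19 and is not called.

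The ETP arrays differed from each other far more in Cd3g and Cd3d than in the other 3 genes. ETP replicate 2 exceeded replicate 1 by 1.77 in Cd3g, or 3.40-fold, which was the largest difference in this direction among all 19938 genes. In Cd3d it exceeded it by 1.29, or 2.44-fold, ranking 10 of 19938. The other differences were -0.02 in Cd3e, 0.01 in Cd247 and -0.15 in Ptcra. Over all genes the median difference was 0.000985, the percentiles 1 and 99 were -0.50 and 0.64, and 31 genes exceeded 1. For comparison, the 2 DN3 arrays differed by 0.05 in Cd3g and 0.03 in Cd3d, and no marrow pair by more than 0.18 in either gene.

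**Figure D4:**
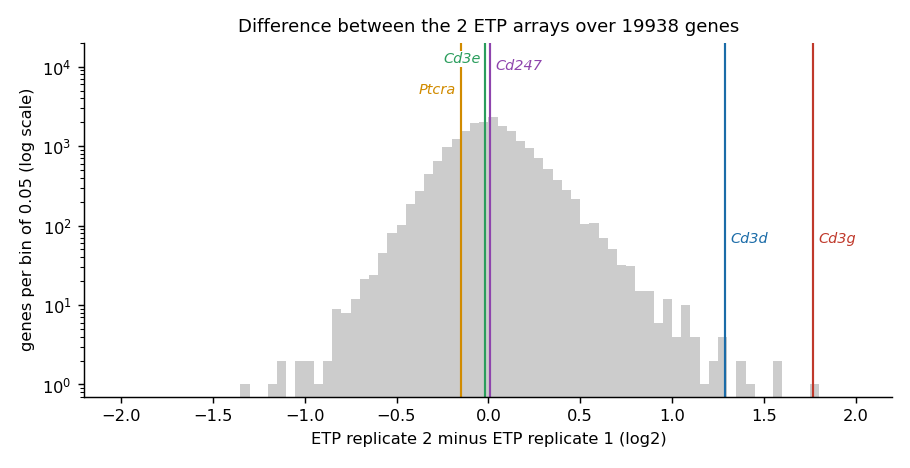
Number of genes (log scale) by the difference between the ETP arrays, replicate 2 minus replicate 1, in bins of 0.05; coloured lines mark the 5 genes. Cd3g at 1.77 and Cd3d at 1.29 lie at the far right of the distribution, whereas Ptcra, Cd3e and Cd247 lie within its centre.

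Both ETP arrays nevertheless stood above marrow in these genes. Replicate 1 exceeded the highest marrow array by 1.71 in Cd3g and 0.69 in Cd3d, and replicate 2 exceeded it by 3.48 and 1.98. Without ETP replicate 1 the Cd3g difference from LMPP was 3.90, and without replicate 2 it was 2.13. Each of these fits leaves 1 ETP array, so the gap between the ETP arrays no longer enters the error. A call in them therefore cannot weigh that gap. Single genes of several lineages were also higher on replicate 2. Il2ra, a marker of DN2 and DN3, read 7.68 in replicate 2 and 6.96 in replicate 1. Trat1, an adaptor of the T cell receptor complex, read 7.25 and 6.31. Gzma, a granzyme that DN2 and DN3 cells also expressed here, read 7.66 and 6.52. Kit read 9.23 and 9.50, and Thy1, which T cells carry on their surface, 9.14 and 9.21. Of 5 markers of ETP, DN2 and DN3, Il2ra among them, 3 were higher, with a median of 0.30. They include Cd44, at 8.52 and 8.22, which was lower in DN2 and DN3 than in ETP. Of all 19938 genes 10008 were higher in replicate 2. Of 11 natural killer markers 7 were higher, with a median difference of 0.32 and a range of -0.35 to 1.14. Their mean level was 6.30 in replicate 2 and 6.05 in replicate 1, against 5.31 to 5.82 in marrow and 6.06 in DN2. Gzma and Gzmb belong to these 11 markers and had the largest differences among them. Gzma read 9.53 in DN2 and 11.16 and 11.21 in DN3, so it did not mark natural killer cells alone here. In ETP against LMPP 4 of the 11 were called higher, beside 287 of all 19938 genes. Car1 was higher by 0.99, Gzmb by 0.90, the B lineage gene Vpreb1 by 0.57 and the neutrophil genes S100a8 and S100a9 by 0.45 each. As whole lists, 2 of 3 erythroid, 3 of 7 B lineage and 5 of 7 neutrophil and myeloid genes were higher. Their medians were 0.03, -0.12 and 0.11. The 3 recombination genes and the 3 LMPP and CLP markers were all higher, with medians of 0.39 and 0.37. Of 17 TCR-proximal signalling genes 9 were higher, and of 13 early T lineage transcription factors 5, with medians of 0.01 and -0.03. Of 8 markers of later alpha beta T cells 7 were higher, with a median of 0.05 and a range of -0.10 to 0.22; Cd4 read 5.66 in replicate 2 and 5.55 in replicate 1, and Cd8a 5.68 and 5.61, all within the marrow range. Of 3 measured gamma delta T cell markers none was higher in replicate 2. The part of these genes' cells in the difference was not tested, and in sorted bulk samples more cells of a type and more RNA per cell cannot be told apart.

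The CD3 genes are neighbours. In the RefSeq annotation (GRCm38.p6) Cd3g and Cd3d start 1355 bases apart on chromosome 9 and are transcribed away from each other, and Cd3e starts 27.8 kb beyond the start of Cd3d. The measured gene outside Cd3e is Mpzl2, an adhesion molecule of thymus epithelium, and the one outside Cd3g is Ube4a, a ubiquitin ligase. Mpzl2 read 8.12 and 8.45 in DN3, 5.87 in DN2 and 4.87 and 4.81 in ETP, against 4.44 to 5.02 in marrow. It exceeded ETP in DN3 by 3.45 (limma adjusted p = 5.43e-07), about as much as Cd3e with 3.37. Ube4a, by contrast, differed by 0.38 between DN3 and ETP (adjusted p = 0.442) and by 0.87 between DN3 and CLP (adjusted p = 0.0243). The neighbours of Cd247, Creg1 and Dusp27, and of Ptcra, Cnpy3 and 2310039H08Rik, were not called for DN3 against ETP (differences of -0.42, 0.01, -0.01 and 0.35). Although their starts lie so close, Cd3g and Cd3d did not move in equal steps, Cd3g gaining 3.65 and Cd3d 1.95 at DN2 and 1.19 and 3.95 at DN3; the difference between the genes was not tested.

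**Figure D5:**
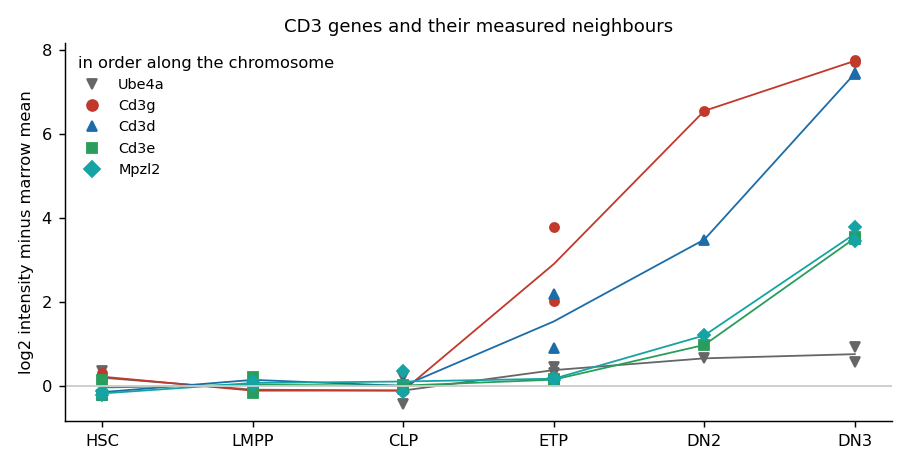
Log2 intensity of the CD3 genes and their measured neighbours relative to each gene's marrow mean (vertical axis), by population; points are arrays, lines join means, and the legend lists the genes in chromosome order. Cd3e and Mpzl2 run together to 3.37 and 3.45 above ETP in DN3, Cd3g and Cd3d rise earlier and further, and Ube4a stays within 1 of its marrow mean.

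Since the 5 genes rose together in DN3 but started at different stages, the 250 bases before each start are shown, from RefSeq (GRCm38.p6), in which all 5 were found. They are printed 5′ to 3′ on the strand of the gene, and capitals mark E boxes, the motif CANNTG that E proteins such as the products of Tcf3 and Tcf12 bind.
Cd3g, chr9:44980432-44980681, minus strand: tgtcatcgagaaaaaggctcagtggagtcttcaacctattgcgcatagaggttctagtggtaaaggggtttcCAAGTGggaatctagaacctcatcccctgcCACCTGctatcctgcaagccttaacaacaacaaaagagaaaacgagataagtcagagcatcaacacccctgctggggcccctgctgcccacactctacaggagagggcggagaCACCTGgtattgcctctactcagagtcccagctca
Cd3d, chr9:44981536-44981785, plus strand: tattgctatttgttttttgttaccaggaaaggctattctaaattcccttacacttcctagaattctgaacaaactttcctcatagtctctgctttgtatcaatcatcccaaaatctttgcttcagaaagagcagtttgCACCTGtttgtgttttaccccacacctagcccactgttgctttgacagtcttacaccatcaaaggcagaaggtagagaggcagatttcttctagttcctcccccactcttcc
Cd3e, chr9:45009612-45009861, minus strand: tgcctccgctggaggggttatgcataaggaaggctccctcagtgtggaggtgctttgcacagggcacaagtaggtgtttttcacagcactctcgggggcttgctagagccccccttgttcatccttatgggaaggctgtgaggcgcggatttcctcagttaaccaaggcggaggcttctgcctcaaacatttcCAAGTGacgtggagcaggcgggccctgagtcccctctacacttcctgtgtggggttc
Cd247, chr1:165788431-165788680, plus strand: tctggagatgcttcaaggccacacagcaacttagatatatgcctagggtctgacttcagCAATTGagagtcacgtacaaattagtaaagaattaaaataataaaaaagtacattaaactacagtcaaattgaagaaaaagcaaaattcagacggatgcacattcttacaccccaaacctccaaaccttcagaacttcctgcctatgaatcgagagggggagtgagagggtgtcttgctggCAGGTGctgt
Ptcra, chr17:46763713-46763962, minus strand: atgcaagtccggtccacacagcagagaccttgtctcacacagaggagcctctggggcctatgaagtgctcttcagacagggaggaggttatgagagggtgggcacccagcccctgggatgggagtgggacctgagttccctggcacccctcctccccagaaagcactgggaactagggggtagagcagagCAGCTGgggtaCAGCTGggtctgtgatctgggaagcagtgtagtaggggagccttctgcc

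Cd3g held 3 E boxes in this window, Cd247 and Ptcra 2 each and Cd3d and Cd3e 1 each. Of all 32851 promoters of the same length 66.2% held at least 1 and 31.8% at least 2, so their presence is common. The boxes of Ptcra are a repeat of CAGCTG beginning 60 and 49 bases before its start, and the form CACCTG stands in Cd3g, at 148 and 35 bases, and in Cd3d, at 112 bases. On both strands, an ETS motif (AGGAAG) was found in Cd3d (1), Cd3e (2) and Cd247 (1), against 29.5% of all promoters, and a TCF/LEF motif (CTTTGA) only in Cd3d (2), against 13.8%. A GATA motif (GATAA) and a CSL motif (GTGGGAA) were each found in Cd3g alone of the 5, against 22.6% and 5.42% of all promoters, and the RUNX motif TGTGGT in none, against 14.05%. A match describes the letters of this window and says nothing of binding.

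Transcription factors of early T cell development also rose in part in DN3. Of 13 measured early T lineage transcription factors 7 rose and 2 fell in DN3 against ETP, with a median log2 difference of 0.61 beside -0.0029 over all genes, of which 535 rose and 775 fell. Lef1, a TCF/LEF factor, rose 9.60-fold, to 9.31 and 9.57 in DN3, against 6.25 and 6.11 in ETP (limma adjusted p = 2.94e-07). Ets1 rose 5.29-fold and Tcf12, which encodes the E protein HEB, 3.20-fold (adjusted p = 3.78e-06 and 8.38e-05). Tcf7 had no probe set of its own and was not analysed here. Tcf3, the gene of E2A, averaged 7.30 in DN3 and 7.14 in ETP and was not called. Spi1, the factor PU.1 that DN3 cells lose, fell 3.42-fold. Without ETP replicate 2 or DN3 replicate 2 the count that rose was 4. The list had been chosen with earlier results of these data known, as had those below.

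Many transcripts of a list of proteins that act next to the CD3 chains rose in DN3. Of 17 measured TCR-proximal kinases, phosphatases and adaptors 10 rose and 1 fell in DN3 against ETP (median 0.62), beside 535 and 775 of all 19938 genes. The count that rose was 7 to 10 when each array was left out. In DN3 against CLP 12 rose and 1 fell (median 0.89), beside 900 and 833 of all genes. Themis, which sets TCR signal strength in thymocytes, read 10.12 and 10.08 in DN3, 8.21 in DN2 and 4.93 and 5.28 in ETP, 31.8-fold higher in DN3 than in ETP (limma adjusted p = 1.32e-07). Lat, the membrane scaffold downstream of ZAP-70, rose 3.15-fold, and Zap70 itself 1.90-fold, reading 6.34 and 6.51 in DN3 and 5.58 and 5.42 in ETP (adjusted p = 0.00211). Syk, the related kinase that pre-TCR signalling also uses, was the 1 that fell, 1.65-fold (adjusted p = 0.00392). At DN2 against ETP, 4 of the 17 rose: Themis, Trat1, Rasgrp1 and Lat, beside 64 of all genes; leaving out each array gave 3 to 4. Lck had no probe set of its own and was not analysed here. With a threshold of 2-fold added, 6 of the 17 rose in DN3 against ETP.

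Among the signalling chains and adaptors of other receptors, 2 of 5 fell in DN3 against ETP and none rose, beside 775 and 535 of all 19938 genes. Tyrobp, the ITAM adaptor DAP12 of natural killer and myeloid receptors, read 6.56 and 7.08 in DN3, against 11.24 in DN2 and 11.67 and 11.68 in ETP, 28.9-fold lower in DN3 than in ETP (limma adjusted p = 1.32e-07). Fcer1g, the Fc receptor gamma chain, a relative of the zeta chain, fell 3.11-fold, to 5.69 and 5.70 in DN3, against 7.23 and 7.44 in ETP (adjusted p = 2.11e-05). Both also fell in DN3 against DN2 (21.5-fold and 4.99-fold), the step at which Cd3d, Cd3e and Cd247 rose. Hcst, the adaptor DAP10, averaged 8.91 in DN3 and 9.24 in ETP, and the B cell chains Cd79a and Cd79b 4.37 and 7.88 in DN3 against 4.36 and 7.78 in ETP, none of them called.

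Among T cell surface receptors, Cd28, the costimulatory receptor, rose 8.93-fold in DN3 against ETP (limma adjusted p = 0.000145) and Cd2 1.80-fold, while Cd7 fell 7.25-fold and Cd27 1.69-fold. In this list of 8, 3 rose and 2 fell, beside 535 and 775 of all 19938 genes. Thy1 was the third that rose. The recombinase genes Rag1 and Rag2, whose products build the beta chain gene that Ptcra's product pairs with, read 11.54 ± 0.13 and 9.08 ± 0.0090 in DN3, against 8.21 and 7.86 in DN2 (SD, n = 2 in DN3), log2 differences of 3.33 and 1.22 (limma adjusted p = 1.22e-05 and 0.007004). Rag1 had also risen in DN2 against ETP, 2.23-fold (limma adjusted p = 0.0222), a call that was lost without ETP replicate 1. Both genes were high in CLP as well, at 10.98 ± 0.17 and 9.09 ± 0.13 (SD, n = 2), where Ptcra averaged 6.35 ± 0.18. Of 8 measured markers of later alpha beta T cells, Cd8b1 (1.91-fold) and Ctla4 (8.64-fold) rose in DN3 against ETP and Icos fell, while Cd4 and Cd8a read 5.49 and 5.27, and 5.62 and 5.61, in DN3.

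By Pearson correlation of log2 levels over the 11 arrays, among the 2977 other named genes whose range was at least 1, the genes most like Cd3g were Gzma (r = 0.992), Il2ra (0.991), Sytl3 (0.985), Rras2 (0.984) and Trat1 (0.977). Those most like Cd3d were Khdc1a (0.986), Skap1 (0.983), an adaptor of T cell adhesion, Sh2d1a (0.981), the SLAM adaptor SAP, Bst1 (0.977) and Mpzl2 (0.974). Cd3e was most like Dgkeos (0.994), Wdr78 (0.992), Mpzl2 (0.991), Lef1 (0.991) and Sh2d1a (0.989). Ptcra was most like Pgpep1l (0.973), Tshz2 (0.970), Lef1 (0.964), Spats2 (0.961) and Epcam (0.956). Cd247 was most like Prkcb (0.977), Ets1 (0.976), Gngt2 (0.976), Snx13 (0.972) and Camkv (0.971). Between the members, r was highest for Cd3d with Cd3e (0.971) and Cd3d with Cd3g (0.956) and lowest for Cd3g with Ptcra (0.715). The arrays fall into populations, with the DN3 pair far from the rest, so these values describe 11 points that are not independent.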

How the data were processed

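The authors deposited RMA values, per the submitters' processing notes. Neither the version of RMA nor the chip definition nor a genome build is named there. The values (2.07 to 13.77, with array medians of 6.01 to 6.12) are those of deposited log2 intensities. Of 35556 probe sets 21789 had 1 gene symbol in GEO's platform annotation, 1621 had several and 12146 none; the highest mean probe set per gene gave 19938 genes. The 5 genes and all lists were chosen with earlier results of these data known.

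limma 3.58.1 (R 4.3.3) fitted 6 population means to 11 arrays (5 residual degrees of freedom), two-sided, with Benjamini-Hochberg adjustment over all genes and calls at adjusted p under 0.05. The contrasts CLP against HSC and DN2 against CLP were added after the data were seen. The labels number replicates without naming animals, so p-values measure the spread between these samples, which may be technical; the number of arrays limits precision. In data simulated for DN3 against ETP on 19938 genes, 94% of 100 genes changed by 1 and 100% of 100 changed by 2 (log2) were recovered. Among the unchanged genes 9 were called. The simulation used normal noise at each gene's fitted spread, the same in every population, as limma assumes. It therefore did not assess genes that spread more in ETP than elsewhere, such as Cd3g and Cd3d. Steps with the single DN2 array were not assessed either. Named genes were the 5, up to 6 called members per list by size of change, each gene's 5 most correlated genes and the nearest measured neighbours. Hlf, Mecom, Car1, Elane, Zap70, Syk, Tcf3, Hcst, Cd79a, Cd79b and the genes set beside the ETP arrays were named after their values were seen. Alternatives covered the filter, normalization, probe set choice, prior, weights, thresholds, replicate block and each array left out. Thymic samples whose descriptions name marrow were taken as thymic by their tissue label. Python 3.11.15, pandas 2.3.3 and matplotlib 3.10.9 handled tables and figures.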

Additional observations from a re-analysis of the deposited data

How the results depend on the processing

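The counts of the 5 genes called in DN3 against DN2, ETP and CLP, in DN2 against CLP and over the 6 populations stayed within 1.5 times of 4, 5, 5, 3 and 5 under every alternative run. From these counts the loss of 1 call stays within that limit, whereas from 2 it does not, so the limit is stricter for the earlier steps. Their counts moved beyond it. With ETP against LMPP, 2 genes became 1 with arrays centred on their medians, with all probe sets tested and at adjusted p under 0.01, and 0 with the 2 populations alone. With ETP against CLP, 2 became 1 with all probe sets tested and at adjusted p under 0.01, and 0 with the 2 populations alone. With DN2 against ETP, 2 became 1 with quantile normalization once more, with centring and at adjusted p under 0.01, and 0 with all probe sets tested. With CLP against HSC, 1 became 0 at adjusted p under 0.01, with a 2-fold minimum and with the 2 populations alone. Leaving out each array gave 1 to 2 genes for ETP against LMPP, ETP against CLP and DN2 against ETP, and 0 to 1 for CLP against HSC. Cd3e in DN2 against ETP was called with array weights (adjusted p = 0.0466). The cause was not tested. Some settings have fewer samples or more features, or rest more on ETP spread.

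Of 1070 alternative values of the members' log2 differences 14 changed sign, none of them called in either setting. Cd3e in CLP against LMPP was 0.0041 with quantile normalization and 0.013 with centring. Leaving out each array gave ranges that crossed 0: for Cd3e, -0.21 to 0.17 in CLP against LMPP, -0.13 to 0.25 in LMPP against HSC, -0.13 to 0.22 in CLP against HSC and -0.068 to 0.31 in ETP against LMPP. For Ptcra they were -0.22 to 0.042 in CLP against LMPP and -0.18 to 0.079 in ETP against CLP. For Cd3g the range was -0.042 to 0.046 in CLP against LMPP, and for Cd247 -0.0022 to 0.10 in ETP against LMPP.

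The replicate numbers were not taken as pairs, since not every correlation of the replicate differences between populations exceeded 0.1. Among LMPP, CLP, ETP and DN3 they ran from 0.0703 to 0.283, and between HSC and these from -0.258 to -0.0876. With the replicate block, 2 genes were called in DN2 against ETP, 4 in DN3 against DN2 and 5 in DN3 against ETP, as without it, and no call of the 5 genes was lost; of the signalling list, 1 in place of 3 rose in DN3 against DN2.

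The number of all genes called moved more. DN3 against ETP gave 1310, against 781 at adjusted p under 0.01, 594 with a 2-fold minimum, 2030 with array weights and 695 to 1426 with an array left out. DN3 against CLP gave 1733, against 936, 677 and 845 to 1882 under the first, second and last of these. DN2 against ETP gave 199, against 96 at 0.01, 109 with all probe sets and 92 to 200 with an array left out, and DN3 against DN2 358, against 191, 196 and 181 to 385. ETP against CLP gave 502, against 230 at 0.01, 255 with a 2-fold minimum, 231 with the 2 populations alone and 248 to 543 with an array left out, and ETP against LMPP 460, against 213, 206, 195 and 228 to 521. LMPP against HSC gave 586, against 137 to 704, CLP against LMPP 228, against 67 to 275, CLP against HSC 1252, against 523 to 1365, and DN2 against CLP 550, against 244 to 625, over all alternatives run.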
